A study of Mus musculus with 32 samples.

Results

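Per1, Per2, Per3, Cry1 and Cry2 encode the period and cryptochrome proteins, which form the inhibitory arm of the circadian clock. They were taken by gene symbol from the annotation of the array's probe sets, each probe set being named by its Entrez gene identifier, and make up 5 of the 23279 genes measured. Each was represented by 1 probe set.

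In the circadian clock the activators BMAL1 (encoded by Arntl) and CLOCK bind E-box sequences and switch on the period and cryptochrome genes. The PER and CRY proteins gather in the cytoplasm, enter the nucleus and hold back BMAL1 and CLOCK, until kinases and ubiquitin ligases mark them for decay and a new cycle starts. Per1 and Per2 also respond to signals from outside the cell, Per3 is held to be less needed for the cycle itself, and Cry1 is known for transcription that comes later than that of the period genes, through added control by the REV-ERB and ROR receptors. Skeletal muscle holds such a clock of its own, which in muscle is tied to fuel use.

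RNA of hindlimb muscle came from C57BL/6 mice of 2 ages, 8 weeks (young) and 80 weeks (aged), held for 2 weeks in 12 h of light and 12 h of darkness with food and water always at hand. The labels name no transgene or drug, nor the sex of the mice or the muscles of the hindlimb taken. Muscle was collected every 3 h, at zeitgeber time (ZT, the time since the lights came on, in h) 0, 3, 6, 9, 12, 15, 18 and 21, at 16 sampling times over 2 days, and RNA was hybridised to Mouse Gene 2.0 ST arrays. Each of the 32 arrays held the pooled RNA of 3 mice, and each of the 16 groups of age and ZT had 2 arrays (repeat 1 and repeat 2), so that the spread between repeats is that between pools and hides the spread between single mice.

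Levels are given on the log2 scale of the deposited table, on which a step of 1 is a change of 2-fold. Levels of different genes on an array depend on their probes and are not set against each other. All 8 fast fibre genes checked were near the top of the scale, with array means from 12.6 to 12.9. In 6 of the 32 arrays 16 hepatocyte genes stood apart, with means from 7.51 to 10.01 against 5.59 to 6.94 in the other arrays. They were 5 young arrays (ZT 0 and ZT 3 of repeat 1, both repeats of ZT 6, ZT 18 of repeat 2) and 1 aged array (ZT 6 of repeat 1). Array means of 5 adipocyte genes ran from 6.29 to 9.24 in young and 6.30 to 9.65 in aged muscle, those of 5 macrophage genes from 6.58 to 7.24 and 6.69 to 7.87, those of 5 slow fibre genes from 7.96 to 10.2 and 6.81 to 9.86, those of 5 endothelial genes from 8.53 to 9.17 and 8.48 to 8.89, those of 5 fibroblast genes from 9.28 to 10.1 and 8.63 to 11.3, those of 2 erythroid genes from 3.64 to 4.45 and 3.79 to 4.49, and those of 2 nerve genes from 7.32 to 8.21 and 7.13 to 7.66. The part of other cells in the results was not tested unless a value is given. In RNA of whole muscle fewer cells of a type and less RNA per cell cannot be told apart.

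The stretches before the starts of the genes are shown because E-boxes and D-boxes are the elements through which the clock is known to time transcription. RefSeq (GRCm38.p6) starts were at hand for 4 of the 5 members, with Per2 not among them, and the 250 bases before each start follow, 5′ to 3′ along the gene. Capitals mark matches, on either strand, to the E-box CACGTG, the variant E-box CACGTT, the D-boxes TTATGTAA and TTACGTAA, which bind DBP, TEF, HLF and NFIL3, or the cAMP response element TGACGTCA.
Per1 (chr11:69098699-69098948, plus strand): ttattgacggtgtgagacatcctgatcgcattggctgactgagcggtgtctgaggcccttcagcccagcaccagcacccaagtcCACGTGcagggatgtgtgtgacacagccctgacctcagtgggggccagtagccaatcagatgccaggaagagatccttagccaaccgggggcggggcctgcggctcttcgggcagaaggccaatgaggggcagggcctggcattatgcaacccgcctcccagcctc
Per3 (chr4:151044666-151044915, minus strand): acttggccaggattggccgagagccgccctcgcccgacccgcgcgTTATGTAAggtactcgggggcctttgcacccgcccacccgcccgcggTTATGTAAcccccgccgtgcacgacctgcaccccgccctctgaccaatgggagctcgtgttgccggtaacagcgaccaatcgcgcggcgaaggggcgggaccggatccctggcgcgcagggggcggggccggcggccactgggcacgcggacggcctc
Cry1 (chr10:85185055-85185304, minus strand): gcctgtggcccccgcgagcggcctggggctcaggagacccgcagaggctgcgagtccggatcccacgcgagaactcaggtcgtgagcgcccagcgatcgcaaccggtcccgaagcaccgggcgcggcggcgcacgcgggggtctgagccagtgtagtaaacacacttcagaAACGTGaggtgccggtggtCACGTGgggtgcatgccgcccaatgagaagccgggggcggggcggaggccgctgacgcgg
Cry2 (chr2:92434070-92434319, minus strand): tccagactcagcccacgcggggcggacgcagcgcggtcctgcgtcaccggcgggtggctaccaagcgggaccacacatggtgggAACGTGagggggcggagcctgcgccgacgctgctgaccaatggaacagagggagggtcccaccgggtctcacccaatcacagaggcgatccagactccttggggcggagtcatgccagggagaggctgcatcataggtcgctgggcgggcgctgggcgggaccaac
Per1 held an E-box 166 to 161 bases before its first listed start, and the window before its second listed start (chr11:69099902-69100151, plus strand) held none of these letters. Per3 held D-boxes 205 to 198 and 158 to 151 bases before its start. Cry1 held an E-box 60 to 55 bases before its start and the variant E-box 79 to 74 bases before it, and Cry2 held the variant E-box alone, 166 to 161 bases before its start. No matches overlapped. Of all 32851 RefSeq windows of this length 6.02% held the E-box, 3.85% the variant E-box, 0.93% a D-box and 1.55% the cAMP response element. A match describes the letters and shows no binding.

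All 5 genes followed the time of day at both ages in the main fit. Calls of Cry1, Cry2 and, in aged muscle, Per1 did not hold under every alternative, as given below. A curve with a period of 24 h was fitted to every gene, and its amplitude is the log2 distance from the mean level to the peak. All 5 members passed the test of rhythm in young muscle, where 1.92% of all genes passed, all 5 passed in aged muscle (0.696% of all genes), and all 5 passed with the ages together (3.60% of all genes). Among the 23279 genes Per2 had the smallest p with the ages together and Per3 ranked 4. By amplitude in young muscle Per1 ranked 5, Per2 24 and Per3 26, while Cry1 ranked 654 and Cry2 973. The period genes thus had amplitudes from 0.84 to 1.23 in young and from 0.71 to 0.96 in aged muscle, and the cryptochrome genes from 0.28 to 0.31 and from 0.27 to 0.29. The median amplitude of all genes was 0.090 in young and 0.079 in aged.

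**Figure D1:**
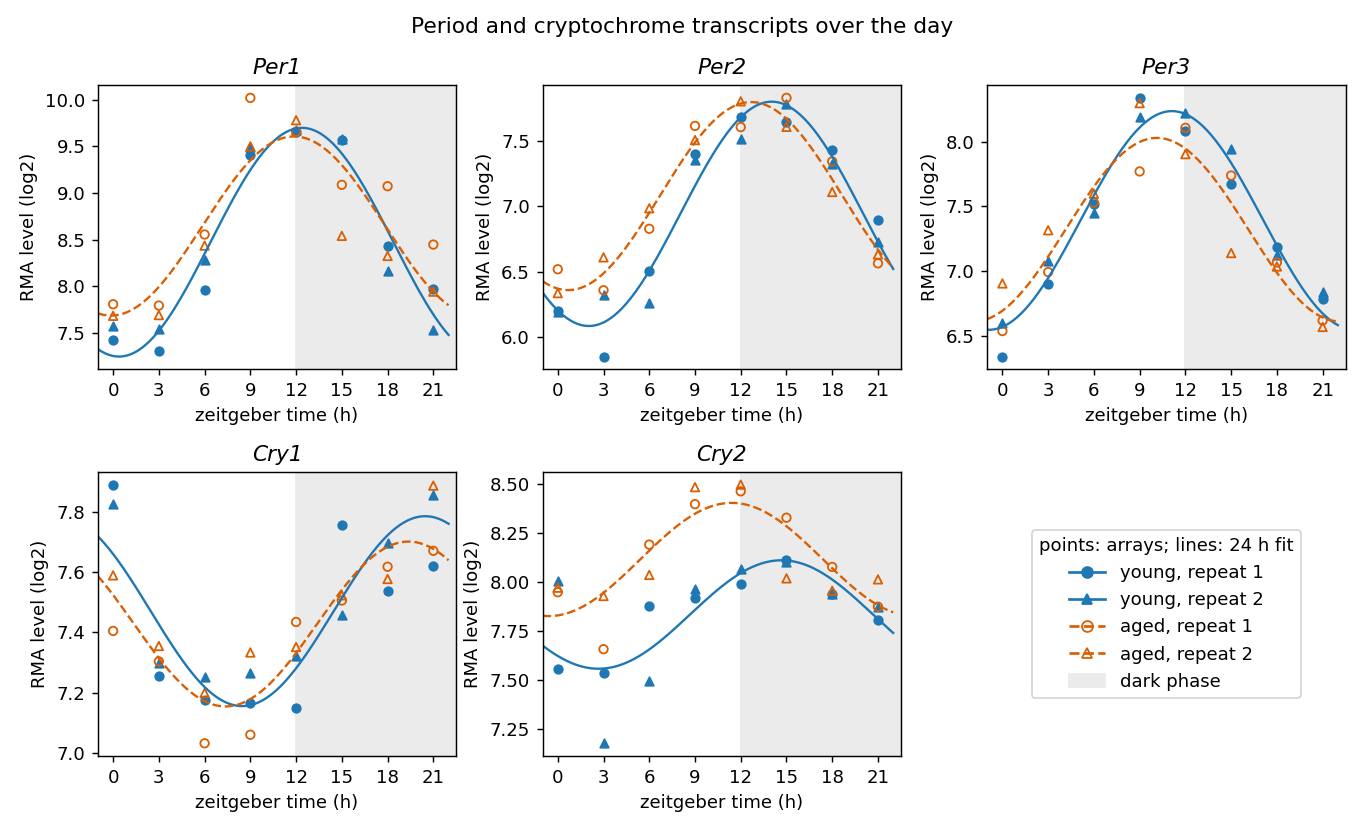
Log2 level (vertical axes, which differ between panels) of each gene against zeitgeber time in h (horizontal axes), for young (filled, blue) and aged (open, orange) muscle. Circles and triangles are the arrays of repeat 1 and 2, lines the 24 h curves fitted to the 16 arrays of an age, and grey the dark phase. Per1, Per2 and Per3 swing by 1.29 to 2.23 log2 units between their lowest and highest group means, Cry1 and Cry2 by 0.64 to 0.75.

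Per1 encodes a PER protein whose transcription also answers to cAMP and glucocorticoid signals. In young muscle Per1 in repeats 1 and 2 was 7.43 and 7.58 at ZT 0, 7.30 and 7.55 at ZT 3, 7.96 and 8.28 at ZT 6, and 9.41 and 9.50 at ZT 9. Through the dark phase it was 9.65 and 9.67 at ZT 12, 9.57 and 9.58 at ZT 15, 8.43 and 8.17 at ZT 18, and 7.98 and 7.53 at ZT 21. The 6 young arrays of ZT 9, 12 and 15 were the highest, at 9.41 to 9.67, those of ZT 0 and ZT 3 lay between 7.30 and 7.58, and the repeats of a group differed by at most 0.44. The fitted change from trough to peak was 5.47-fold, with an amplitude of 1.23 ± 0.11 (SE, n = 16 arrays) and a peak at ZT 12.4 ± 0.334 (adjusted p = 3.19e-08).

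Aged Per1 was 7.81 and 7.69 at ZT 0, 7.80 and 7.69 at ZT 3, 8.56 and 8.44 at ZT 6, and 10.02 and 9.50 at ZT 9 in repeats 1 and 2. In the dark phase it was 9.66 and 9.78 at ZT 12, 9.09 and 8.54 at ZT 15, 9.07 and 8.33 at ZT 18, and 8.45 and 7.94 at ZT 21. The highest group was ZT 9, where the 2 arrays differed by 0.52, and at ZT 15 both aged arrays (9.09 and 8.54) were below both young arrays (9.57 and 9.58). With 2 arrays in each group a separation at a single ZT is common without any age difference, here and for the other members. Its share over all genes was not counted. The amplitude was 0.96 ± 0.11 (SE, n = 16), a change of 3.78-fold with its peak at ZT 11.9 ± 0.427 (adjusted p = 6.85e-06). The curve took up 93.8% of the variance of Per1 in young and 79.5% in aged muscle, and the median gap between repeats was 0.20 and 0.32. Within repeat 2 alone the aged rhythm of Per1 had an adjusted p of 0.0508.

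Per2 encodes the PER protein whose loss weakens the clock most among the period genes. Young Per2 was 6.20 and 6.19 at ZT 0, 5.85 and 6.32 at ZT 3, 6.50 and 6.26 at ZT 6, and 7.40 and 7.36 at ZT 9 in repeats 1 and 2. Later in the day it was 7.68 and 7.51 at ZT 12, 7.65 and 7.78 at ZT 15, 7.43 and 7.33 at ZT 18, and 6.90 and 6.73 at ZT 21. It stayed between 5.85 and 6.50 in all young arrays from ZT 0 to ZT 6, lay at 7.36 and 7.40 at ZT 9 and was highest at ZT 15. The amplitude was 0.86 ± 0.05 (SE, n = 16), a change of 3.29-fold, with the peak at ZT 14.04 ± 0.232 (adjusted p = 1.54e-11).

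In aged muscle Per2 was 6.52 and 6.34 at ZT 0, 6.36 and 6.61 at ZT 3, 6.83 and 6.99 at ZT 6, and 7.62 and 7.51 at ZT 9. After lights off it was 7.61 and 7.81 at ZT 12, 7.83 and 7.61 at ZT 15, 7.35 and 7.11 at ZT 18, and 6.56 and 6.63 at ZT 21. The aged arrays lay above the young arrays at ZT 0, 3, 6 and 9, overlapped with them from ZT 12 to ZT 18, and lay below them at ZT 21. The differences of the group means, aged minus young, ran from 0.53 at ZT 6 to -0.21 at ZT 21. The amplitude was 0.72 ± 0.05 (SE, n = 16), or 2.72-fold, with the peak at ZT 12.7 ± 0.277 (adjusted p = 1.76e-09). The curve took up 94.4% of the variance in young and 95.6% in aged.

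Per3 encodes the third PER protein. Its young levels in repeats 1 and 2 were 6.34 and 6.60 at ZT 0, 6.90 and 7.08 at ZT 3, 7.52 and 7.45 at ZT 6, and 8.34 and 8.19 at ZT 9. From lights off they were 8.08 and 8.22 at ZT 12, 7.67 and 7.94 at ZT 15, 7.19 and 7.12 at ZT 18, and 6.79 and 6.84 at ZT 21. By group mean Per3 was lowest at ZT 0 and rose up to ZT 9, where it was 1.79 higher than at ZT 0. The amplitude was 0.84 ± 0.06 (SE, n = 16), a change of 3.22-fold, with the peak at ZT 11.1 ± 0.274 (adjusted p = 4.78e-10).

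Aged Per3 in the light phase was 6.54 and 6.91 at ZT 0, 6.99 and 7.32 at ZT 3, 7.53 and 7.60 at ZT 6, and 7.77 and 8.30 at ZT 9. In darkness it was 8.11 and 7.90 at ZT 12, 7.74 and 7.14 at ZT 15, 7.07 and 7.04 at ZT 18, and 6.62 and 6.57 at ZT 21. The aged repeats differed by 0.53 at ZT 9 and 0.60 at ZT 15, more than any young repeats, whose largest gap was 0.27. Both aged arrays were below both young arrays at ZT 18 and ZT 21 and above them at ZT 6. No share of all genes was counted for these times. The amplitude was 0.71 ± 0.06 (SE, n = 16), or 2.67-fold, with the peak at ZT 10.1 ± 0.327 (adjusted p = 3.22e-08).

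Cry1 encodes the cryptochrome held to be the stronger repressor. Young Cry1 was 7.89 and 7.82 at ZT 0, 7.25 and 7.30 at ZT 3, 7.18 and 7.25 at ZT 6, and 7.16 and 7.27 at ZT 9 in repeats 1 and 2. In the dark phase it was 7.15 and 7.32 at ZT 12, 7.76 and 7.46 at ZT 15, 7.54 and 7.70 at ZT 18, and 7.62 and 7.86 at ZT 21. It was highest at ZT 0, was lower in both arrays of ZT 3, and lay between 7.15 and 7.32 in all 8 arrays from ZT 3 to ZT 12. The amplitude was 0.31 ± 0.05 (SE, n = 16), a change of 1.55-fold, and the fitted peak was at ZT 20.5 ± 0.581 (adjusted p = 0.000408). The curve took up 73.3% of the variance, and its peak lay before the highest group.

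In aged muscle Cry1 was 7.40 and 7.59 at ZT 0, 7.30 and 7.35 at ZT 3, 7.03 and 7.20 at ZT 6, and 7.06 and 7.33 at ZT 9. Later it was 7.43 and 7.35 at ZT 12, 7.51 and 7.52 at ZT 15, 7.62 and 7.58 at ZT 18, and 7.67 and 7.89 at ZT 21. The highest group was ZT 21 and not ZT 0, at which both aged arrays were below both young arrays by 0.36 on average, the largest age difference of Cry1 at any ZT. At ZT 3 and ZT 12 both aged arrays were above both young arrays. The amplitude was 0.27 ± 0.05 (SE, n = 16), or 1.46-fold, with the peak at ZT 19.4 ± 0.669 (adjusted p = 0.00595). With ZT as a factor of 8 levels in place of the curve the rhythm of Cry1 missed the threshold in aged muscle (adjusted p = 0.259), and within a single repeat it missed it at both ages (adjusted p from 0.0946 to 0.457).

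Cry2 encodes the other cryptochrome. In young muscle Cry2 was 7.56 and 8.01 at ZT 0, 7.53 and 7.17 at ZT 3, 7.87 and 7.49 at ZT 6, and 7.92 and 7.96 at ZT 9 in repeats 1 and 2. Its levels in the dark phase were 7.99 and 8.06 at ZT 12, 8.11 and 8.10 at ZT 15, 7.94 and 7.94 at ZT 18, and 7.81 and 7.87 at ZT 21. The young repeats differed by 0.36 to 0.45 at ZT 0, 3 and 6 and by at most 0.076 at the other times. The amplitude was 0.28 ± 0.06 (SE, n = 16), a change of 1.47-fold, with the peak at ZT 14.7 ± 0.789 (adjusted p = 0.0151).

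Aged Cry2 was 7.95 and 7.97 at ZT 0, 7.66 and 7.93 at ZT 3, 8.19 and 8.04 at ZT 6, and 8.40 and 8.48 at ZT 9. In the dark phase it was 8.46 and 8.50 at ZT 12, 8.33 and 8.02 at ZT 15, 8.08 and 7.95 at ZT 18, and 7.87 and 8.01 at ZT 21. The 4 aged arrays of ZT 9 and ZT 12, from 8.40 to 8.50, were higher than every young array, the highest of which was at 8.11. The amplitude was 0.29 ± 0.06 (SE, n = 16), or 1.49-fold, with the peak at ZT 11.4 ± 0.756 (adjusted p = 0.0217).

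The call of a rhythm in Cry2 depended on single arrays. In young muscle it missed the threshold without ZT 3 repeat 2 (adjusted p = 0.0769, amplitude 0.22), and in aged muscle without ZT 9 repeat 1 (0.0526), ZT 9 repeat 2 (0.0674), ZT 12 repeat 1 (0.0692) or ZT 12 repeat 2 (0.0780). Its aged amplitude stayed between 0.27 and 0.32 with any single array left out. With ZT as a factor of 8 levels the adjusted p of Cry2 was 0.232 in young and 0.436 in aged, with young muscle fitted alone it was 0.0765, and within a single repeat it ran from 0.168 to 0.590. With the ages together it was 0.407 within repeat 2. Without the 6 arrays with hepatocyte transcripts the adjusted p of Cry2 was 0.176 in young and 0.0571 in aged at amplitudes of 0.28 and 0.29, and 0.0127 with the ages together. Per1, Per2, Per3 and Cry1 passed at both ages without these 6 arrays.

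The genes peaked in an order that ran from late light to late night. With the ages together the fitted peaks were at ZT 10.7 for Per3, ZT 12.2 for Per1, ZT 13.4 for Per2 and ZT 20.0 for Cry1, with Cry2 between Per1 and Per2. Each age and repeat gave a curve of its own over 8 arrays, so that every gene had 4 curves from other mice. The peaks of these curves ran from ZT 9.18 to ZT 11.2 for Per3 and from ZT 11.4 to ZT 12.8 for Per1, which did not overlap. Those of Per2 ran from ZT 12.3 to ZT 14.04 and those of Cry1 from ZT 18.8 to ZT 20.6, again without overlap. Cry2, from ZT 10.6 to ZT 15.5, overlapped with Per3, Per1 and Per2, and Per1 overlapped with Per2.

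**Figure D2:**
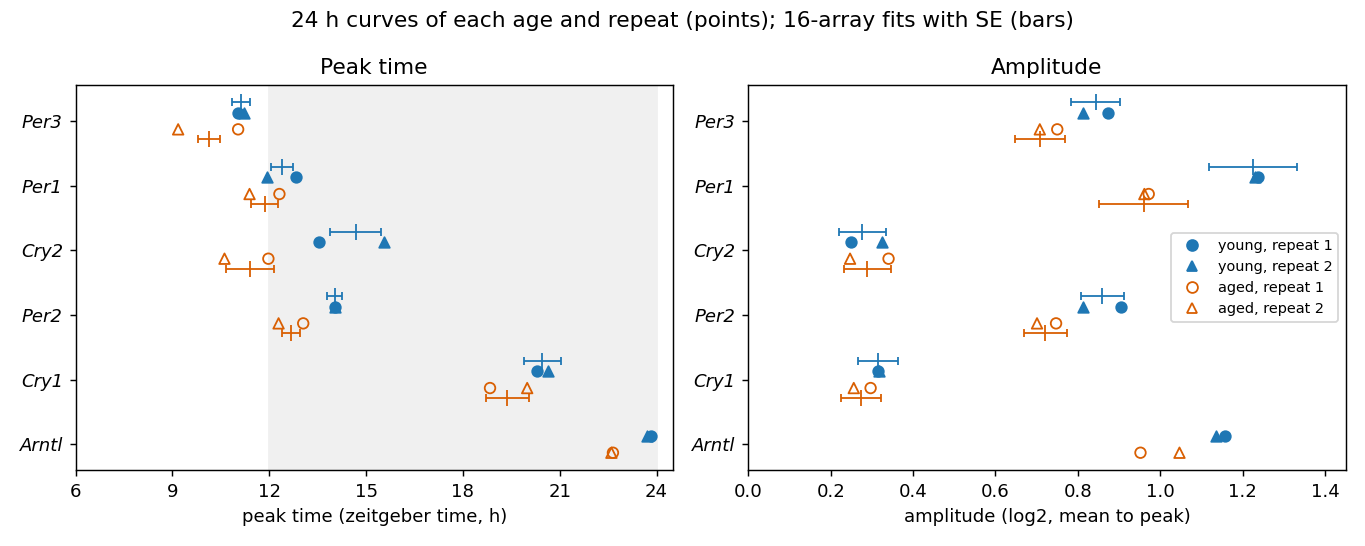
Peak time (left, zeitgeber time in h, dark phase in grey) and amplitude (right, log2 distance from mean to peak) of each gene, for young (filled, blue) and aged (open, orange). Points are the curves of repeat 1 (circles) and repeat 2 (triangles), each over 8 arrays, and bars are the fits over 16 arrays with their SE; Arntl is shown for reference. Per3 peaks first and Cry1 last among the 5 genes at both ages, and the aged points of Cry2 and Per2 lie to the left of the young ones.

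Distances between peaks were taken within each curve. Per2 peaked after Per1 in all 4 curves, by 1.21 h and 2.09 h in young repeats 1 and 2 and by 0.74 h and 0.90 h in aged. Per3 peaked before Per2 in all 4 curves, with differences, Per3 minus Per2, of -3.11 to -2.02 h. Cry1 followed Per2 by 6.24 h and 6.61 h in young and by 5.79 h and 7.70 h in aged. Cry1 came before Arntl, the gene of the activator BMAL1, by 2.61 to 3.81 h, and the distance of the fitted peaks was 3.29 h in young and 3.25 h in aged muscle. From Per2 to Arntl it was 9.72 h in young and 9.94 h in aged. The place of Cry2 was poorly determined. It peaked 0.49 h before Per2 in young repeat 1, 1.51 h after it in young repeat 2, and 1.08 h and 1.68 h before it in aged repeats 1 and 2. Within a single repeat the rhythm of Cry2 passed at neither age (adjusted p from 0.168 to 0.590). The SE of its peak shift between ages was 1.21 h in repeat 1 and 1.93 h in repeat 2.

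Cry2 was higher in aged than in young muscle, and no other member passed the test of level. Cry2 averaged 7.83 ± 0.26 in young and 8.11 ± 0.25 in aged (SD over times of day, n = 16 each). Aged minus young it was 0.28 ± 0.06 (SE; 95% interval 0.16 to 0.40), a 1.22-fold difference with ZT taken into account (adjusted p = 0.000884). A higher level in aged muscle was called for 9.67% of the genes tested and a lower one for 7.51%, so that 1 of 5 members is close to this background. The 2 aged arrays of Cry2 were above the 2 young arrays at 6 of 8 ZT, which 4.32% of all genes showed at 6 or more ZT. The limit of 6 ZT equals the count of Cry2 itself, so that this share describes and does not test. The difference was 0.43 to 0.50 from ZT 3 to ZT 12 and 0.068 to 0.18 at the other times. Its dependence on ZT did not pass in limma (unadjusted p = 0.216, adjusted p = 0.9998). With ZT taken into account the difference was 0.29 within repeat 2 alone (adjusted p = 0.112), 0.28 within repeat 1 alone and past the threshold there. It was 0.26 without the 6 arrays with hepatocyte transcripts (adjusted p = 0.0111). The adipocyte array means had medians of 7.50 in young and 8.45 in aged, the macrophage means 6.76 and 7.09, the slow fibre means 9.08 and 8.55, and the fibroblast means 9.72 and 9.12. Their part in the difference of Cry2 was not tested.

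Differences in level of the other members were smaller or less even. Per1 was 0.17 ± 0.10 (SE) higher in aged (adjusted p = 0.254), and its difference was 0.34 within repeat 1 and 0.0062 within repeat 2. Without aged ZT 15 repeat 2 it was 0.24 and passed the threshold (adjusted p = 0.0441), and without the 6 arrays with hepatocyte transcripts it was 0.079 (adjusted p = 0.760). Per2 was 0.14 ± 0.06 higher (adjusted p = 0.155), and 0.035 higher without the 6 arrays. Per3 was at -0.07 ± 0.07 (adjusted p = 0.533; 95% interval -0.21 to 0.07; -0.15 without the 6 arrays) and Cry1 at -0.04 ± 0.05 (adjusted p = 0.603; -0.14 to 0.06). Per1 and Per2 had both aged arrays above both young arrays at 4 of 8 ZT, in both cases ZT 0, 3, 6 and 9, and with Cry2 this made 3 of 5 members with 4 or more such ZT, against 12.3% of all genes. Of the 5 young arrays with hepatocyte transcripts 4 were at ZT 0, 3 and 6, among them both of ZT 6, so that this count includes times at which those arrays stood for young muscle. The limit of 4 ZT equals the count of Per1 and Per2 themselves, so that the share of 12.3% describes and does not test. No such share was counted for aged arrays below young ones. Per1 had the largest single difference of any member, -0.76 at ZT 15, between values of 0.24 to 0.44 at ZT 0 to ZT 9, ZT 18 and ZT 21 and 0.059 at ZT 12.

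**Figure D3:**
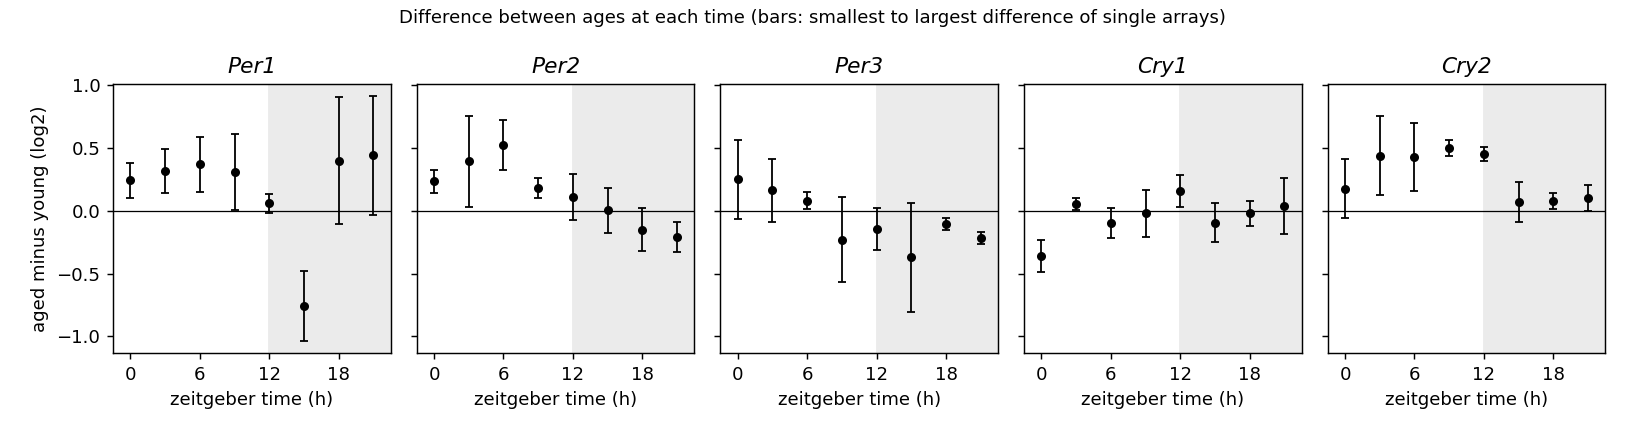
Aged minus young level (vertical axis, log2) at each zeitgeber time (horizontal axis, h) for the 5 genes, with the dark phase in grey. Points are differences of the means of 2 arrays, and bars run from the smallest to the largest difference between an aged and a young array, so that a bar clear of 0 means no overlap. Cry2 lies above 0 at all 8 times, Per2 goes from 0.53 at ZT 6 to -0.21 at ZT 21, and Per1 is at -0.76 at ZT 15.

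Whether the rhythm itself differed with age was tested on the aged minus young difference of the curve, as a whole and as its peak time and amplitude parts. In limma 0 of 5 members passed in each of these tests, as did 0% of all genes in each of them (1293 genes at an unadjusted p under 0.05 for the whole difference, 1148 for the peak time and 1393 for the amplitude). The fitted peaks of all 5 members were earlier in aged muscle, as were those of 57.7% of the 837 genes rhythmic with the ages together. The shift of Per2, aged minus young, was -1.35 h (95% interval -2.09 to -0.62 h; unadjusted p = 0.000758, adjusted p = 0.840) and was negative in both repeats, at -0.98 h within repeat 1 and -1.75 h within repeat 2. That of Cry2 was -3.27 h (-5.50 to -1.04 h; unadjusted p = 0.00677, adjusted p = 0.974), with -1.57 h within repeat 1 and -4.93 h within repeat 2. For Per3 it was -0.98 h (-1.85 to -0.11 h; unadjusted p = 0.0286, adjusted p = 0.992), but its peaks differed by 0.0055 h within repeat 1 and by -2.03 h within repeat 2. The shifts of Per1 and Cry1, -0.53 h (95% interval -1.64 to 0.57 h) and -1.09 h (-2.90 to 0.72 h), had intervals that hold 0. Without the 6 arrays with hepatocyte transcripts the shifts of Per1, Per2, Per3, Cry1 and Cry2 were -0.36, -1.07, -0.67, -0.99 and -3.54 h.

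Fitted amplitudes of Per1, Per2, Per3 and Cry1 were smaller in aged muscle, but none of these differences passed the test. The median amplitude of the 837 genes rhythmic with the ages together was smaller as well, at 0.190 in aged against 0.227 in young muscle. The difference of Per1 was -0.27 ± 0.15 (SE; unadjusted p = 0.0894), that of Per2 -0.14 ± 0.07 (unadjusted p = 0.0654) and that of Per3 -0.14 ± 0.09 (unadjusted p = 0.121), with adjusted p from 0.836 to 0.880. For Cry1 it was -0.041 (95% interval -0.18 to 0.097) and for Cry2 0.012 (-0.15 to 0.18). In the curves of repeats 1 and 2 Per1 had amplitudes of 1.24 and 1.23 in young and 0.97 and 0.96 in aged, Per2 0.91 and 0.81 against 0.75 and 0.70, and Per3 0.87 and 0.81 against 0.75 and 0.71. Without the 6 arrays with hepatocyte transcripts the amplitude of Per1 was 1.19 in young and 0.96 in aged, and that of Per2 0.75 and 0.72. Those of Per3 were then 0.80 and 0.72, those of Cry1 0.29 and 0.25, and those of Cry2 0.28 and 0.29. A dependence of the age difference on ZT, tested over the 16 groups with no curve, was found in 0 of 5 members and 0% of all genes by limma (771 genes at an unadjusted p under 0.05). The unadjusted p of this test was 0.0259 for Per1, 0.0276 for Per2, 0.276 for Per3, 0.249 for Cry1 and 0.216 for Cry2.

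No member had a component of 12 h past the threshold in limma, against 0.00859% of all genes (2 genes; 905 at an unadjusted p under 0.05). Per1 had the largest such term, with an amplitude of 0.24 (unadjusted p = 0.00413), and Cry2 came next with 0.11 (unadjusted p = 0.0175), each with adjusted p = 0.999. The 12 h terms of Per2, Per3 and Cry1 were between 0.040 and 0.060.

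The genes whose profile was most like each member were found by correlation over the 32 arrays after the mean of each age was taken away. These values describe profiles that share the time of sampling. Per1 was most like Usp2 (r = 0.92), a deubiquitinase gene, Cep85l (0.89) and the kinase gene Sgk1 (0.84), and most opposite to Arntl (-0.91), Clock (-0.90) and Rab11fip3 (-0.87). Per2 was most like Mylk4 (0.94), a kinase gene of muscle, Mid1ip1 (0.93) and the corepressor gene Nrip1 (0.93), and most opposite to Ptpn4 (-0.90), Clock (-0.87) and Mast4 (-0.87). Per3 was most like Dbp (0.94), which encodes a factor that binds D-boxes, Stk35 (0.90) and Tns2 (0.88), and most opposite to Arntl (-0.93), Wsb1 (-0.88) and Rnf122 (-0.88).

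Cry1 was most like Zcchc2 (0.81), Nfil3 (0.79), which encodes a repressor at D-boxes, and the corepressor gene Tle1 (0.78), and most opposite to Bhlhe40 (-0.84), Ky (-0.80) and Jarid2 (-0.78). Cry2 was most like Ephx1 (0.82), Ablim3 (0.81) and Mid1ip1 (0.79), and most opposite to Clock (-0.81), Arntl (-0.71) and Pik3ca (-0.71). Among the members themselves Per1 and Per2 had the highest correlation (0.88), followed by Per1 and Per3 (0.85), while Cry1 and Cry2 were at -0.047 and Cry1 and Per3 at -0.63. After the mean of each group of age and ZT was taken away, the correlation was highest for Per3 with Cry2 (0.43) and Per1 with Per2 (0.41) and lowest for Per1 with Cry1 (-0.45), and that of Per1 with Per3 was 0.028.

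Of the genes that are known to act on the members, most transcription regulators also had a daily rhythm, with peaks at different times of day. Rora and Rorb did not pass with the ages together (adjusted p = 0.196 and 0.335). Of 15 regulators listed 14 were measured. In young muscle 12 of them passed the test of rhythm (1.92% of all genes), and 11 in aged muscle (0.696%). With both ages joined 12 passed (3.60%), and the median amplitude of the 14 was 0.37 against 0.064 over all genes. Those of largest amplitude were Nr1d1 (1.27), Arntl (1.06), Dbp (1.02), Ciart (0.78), Npas2 (0.78) and Nfil3 (0.66). Nr1d1 encodes REV-ERBα, a repressor of Cry1, and peaked at ZT 5.72 in young and ZT 5.20 in aged, 9.26 h and 9.83 h after Cry1. Dbp peaked at ZT 11.7 and ZT 10.4, against ZT 11.1 and ZT 10.1 for Per3. Of the 12, 11 had an earlier fitted peak in aged muscle, the exception being Hlf. Among the 837 genes rhythmic with the ages together 57.7% had an earlier one. The peak time test called none of the regulators and 0% of all genes. Of the regulators 5 were higher in aged (Clock by 0.31, Rorb by 0.28, Rora by 0.26, Arntl by 0.24 and Bhlhe40 by 0.19) and Ciart was lower, at -0.24, where 9.67% of all genes were called higher and 7.51% lower.

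Genes that act on the PER and CRY proteins were for the most part flat over the day. Of 15 measured genes (17 listed) of kinases, phosphatases and the ubiquitin pathway only Usp2 was rhythmic, with an amplitude of 0.45 and peaks at ZT 12.9 in young and ZT 11.9 in aged (adjusted p = 3.02e-11 with the ages together). Among all genes 3.60% were rhythmic with the ages together. The median amplitude of the 15 genes was 0.049, below that of all genes. Csnk2a1 (0.22), Usp7 (0.16), Ppp1cb (0.16) and Prkaa1 (0.16) were higher in aged, which is 4 of 15 against the same 9.67% of all genes, and none was lower. Of 9 nuclear partners measured (10 listed) only Sin3a, a corepressor gene, was rhythmic with the ages together (amplitude 0.17, adjusted p = 7.62e-05), against the same 3.60% of all genes. Tipin (0.25), Dhx9 (0.21), Ddx5 (0.21) and Sfpq (0.16) were higher in aged, and Nono (-0.24) and Wdr5 (-0.21) were lower, or 4 and 2 of 9 against 9.67% and 7.51% of all genes.

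A list of signal inputs to the period genes also held targets of such signals. Of its 10 measured genes (11 listed) 3 were rhythmic with the ages together, against 3.60% of all genes. Fkbp5 and Tsc22d3 are targets of the glucocorticoid receptor and not inputs themselves, which leaves Creb1 as the only rhythmic input gene. Fkbp5 and Tsc22d3 had amplitudes of 0.61 and 0.45. Their young peaks, at ZT 18.9 and ZT 17.0, came later than that of Per1. Creb1, the gene of the cAMP response factor CREB, had an amplitude of 0.13 (adjusted p = 0.0130 with the ages together). It passed at neither age alone (adjusted p = 0.363 in young and 0.156 in aged). Fos was 0.82 higher in aged, and Crtc3 (-0.22) and Srf (-0.17) were lower, or 1 and 2 of 10 against the same shares of all genes.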

How the data were processed

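The 32 arrays each held pooled RNA of 3 mice. The authors deposited log2 expression values per probe set, made with RMA (R 3.2.2, affy 1.44.1) per the submitters' processing notes; the genome build and the probe set definition behind them are not given here. Values ran from 1.70 to 13.7, and array medians from 5.98 to 6.08. RMA had already scaled the arrays to each other, so a change shared by all genes would not be seen. Of 24479 probe sets 23281 had 1 gene symbol, 0 several and 1198 none, which left 23279 genes.

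Curves of 24 h were fitted with limma 3.58.1 (R 4.3.3) over all 32 arrays, with p-values adjusted by Benjamini-Hochberg over all 23279 genes and a threshold of 0.05. Every adjusted p in the text is from limma. Age differences in level had ZT as a factor of 8 levels. The code was tested on simulated data. Intervals cover 95%, and the number of arrays limits the precision. Alternatives were ZT as a factor, each age alone, a replicate block, a filter on low values, array weights, another variance prior, quantile normalisation, and leaving out a repeat, an array or the 6 arrays with hepatocyte transcripts. Named genes are the members, the 3 most and 3 least correlated with each, and those of the 4 lists that passed the test of rhythm or of age (at most 6 by amplitude). The members and lists were chosen with earlier results of these data known. Over 120 pairs of groups the deviations of equal repeat numbers had a median correlation of 0.027, with a range of -0.23 to 0.31. Pairing of the arrays by repeat number within a single age was not tested. No source used here says that a repeat is a day of sampling.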

Additional observations from a re-analysis of the deposited data

How the results depend on the processing

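Of the 42 alternatives, 32 left out a single array. The age difference of Cry2 could be fitted under 40 of them and was positive in each, from 0.26 to 0.31, with adjusted p from 0.000262 to 0.112. With ZT taken as 8 levels and no curve, 3 of 5 members were rhythmic in aged muscle. With a repeat or an array left out, the members rhythmic in young were 3 to 5, those rhythmic in aged 2 to 5, and those whose level differed with age 0 to 2. Repeat 2 alone gave the 0, and the arrays without aged ZT 15 repeat 2 gave the 2 (Cry2 and Per1). With a replicate block the rhythm test called 5 members in young muscle, 5 in aged muscle and 5 over both, and 1 member differed in level, so that the block changed no call of a member. The number of all genes rhythmic in young was 35 without repeat 1 and 77 without repeat 2, against 448, and in aged 8 and 20, against 162. With ZT as levels these counts were 104 and 32. All genes whose level differs with age were 3998, and 1781 and 1617 without repeat 1 and repeat 2. Without the 6 arrays with hepatocyte transcripts the age by ZT test could not be fitted, since young ZT 6 then had no array.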
